A study of Mus musculus with 6 samples.

Results

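The primary cilium and intraflagellar transport genes described here are a named list of 57 mouse genes, chosen by function: subunits of the transport trains that run along the cilium, of the BBSome, of the transition zone at the ciliary base, and of the centriole and basal body beneath it. Kinesin motors were left out of the list. Of the 57 genes, 49 have an entry among the 10361 gene names of the deposited table, and the other 8 (Ttc26, Bbs10, Bbs12, Tctn1, Tctn2, Tctn3, Mks1 and Nphp4) were not analysed here. All 49 averaged at least 1 FPKM (a level corrected for the length of the transcript and the number of mapped fragments) and were tested with 9987 genes in all.

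The samples are poly-A RNA of retinal ganglion cells (RGCs), whose axons make up the optic nerve, from wild-type mice (genotype WT, strain C57/6NCrl as the labels spell it). The 6 libraries fall into 3 groups of 2. The E18 group is untreated RGCs of embryonic day 18, about 50000 cells purified on Thy1 antibody. The miR1247 group is adult RGCs that carried AAV2 for a miR-1247-5p mimic (miR-1247-5p is a microRNA), and the mCherry group is adult RGCs with AAV2 carrying a scramble shRNA mimic. For each adult condition, cells of 10 retinas were purified on Thy1 antibody and then sorted for mCherry, about 5000 cells in all. The adult retinas of a condition were pooled, and the promoter of the vector, the age of the adults in weeks and the relation of the 2 libraries of a group to separate animals are not given in the sources used here. The p-values therefore measure only how far these libraries scatter, and that scatter may be technical. Between E18 and adult libraries, age, vector, sorting and number of cells cannot be told apart.

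A primary cilium is a non-motile rod of microtubules that grows from the mother centriole and displays receptors, among them those of Hedgehog signalling. Trains of IFT-B particles carry tubulin and other cargo outward on kinesin-2, and IFT-A particles return on the motor dynein-2. The BBSome is an adaptor that moves membrane proteins along these trains, and the transition zone is the gate that decides what enters. Loss of these genes causes ciliopathies, many of which damage the retina through the photoreceptors, whose outer segment is a modified cilium.

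Many ciliary genes are bound by RFX factors at a motif called the X-box. Promoters of 300 bases (250 before to 50 after the start site) were read from RefSeq sequences of build GRCm38.p6, which held 50 of the 57 genes, 42 of them with an entry in the table. The X-box was spelled here as GTNNCC and GGNAAC with 2 free bases between them. This spelling, searched on both strands, was present in 13 of these 50 promoters (26%) and in 1.49% of 27025 genes. Its half-site GTTGCC, which can overlap the longer motif, was present in 26 of 50 (52%) and in 14.1% of all genes. The 9 matches to the longer motif in the 8 genes with an entry follow in capitals, each with 8 bases on either side. They show how far the motif is shared between genes called lower and genes not called in E18 over mCherry below.

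Bbs7, chr3:36613489-36613518 (minus strand): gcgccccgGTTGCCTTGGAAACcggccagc
Ift22, chr5:136908079-136908108 (plus strand): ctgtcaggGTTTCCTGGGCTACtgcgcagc
Ift22, chr5:136908109-136908138 (plus strand): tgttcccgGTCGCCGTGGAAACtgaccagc
Tmem231, chr8:111933781-111933810 (minus strand): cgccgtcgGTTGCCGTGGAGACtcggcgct
Bbs4, chr9:59353464-59353493 (minus strand): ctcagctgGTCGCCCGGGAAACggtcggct
Ahi1, chr10:20952560-20952589 (plus strand): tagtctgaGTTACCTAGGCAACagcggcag
Ift57, chr16:49699199-49699228 (plus strand): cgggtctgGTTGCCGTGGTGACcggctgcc
Bbs1, chr19:4906605-4906634 (minus strand): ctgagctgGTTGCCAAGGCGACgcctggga
Tmem216, chr19:10555723-10555752 (minus strand): tgtacgcaGTTTCCATGGGGACtgaacatg

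The promoter of Ift88, the IFT-B gene with the highest fold change in E18, holds no match to the longer motif and 1 half-site, which reads GGCAAC on this strand and stands in capitals in the whole window below.

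Ift88, chr14:57423821-57424120 (plus strand): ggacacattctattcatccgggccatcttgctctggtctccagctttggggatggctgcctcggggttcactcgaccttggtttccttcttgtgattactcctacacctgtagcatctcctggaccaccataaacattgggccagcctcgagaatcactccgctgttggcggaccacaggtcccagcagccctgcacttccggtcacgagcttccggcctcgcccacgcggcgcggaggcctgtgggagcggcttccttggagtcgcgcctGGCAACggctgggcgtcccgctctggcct

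The half-site of Ift88 begins 21 bases after the start site. The motif matches of the 42 genes with an entry are plotted by distance from the start site.

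**Figure D1:**
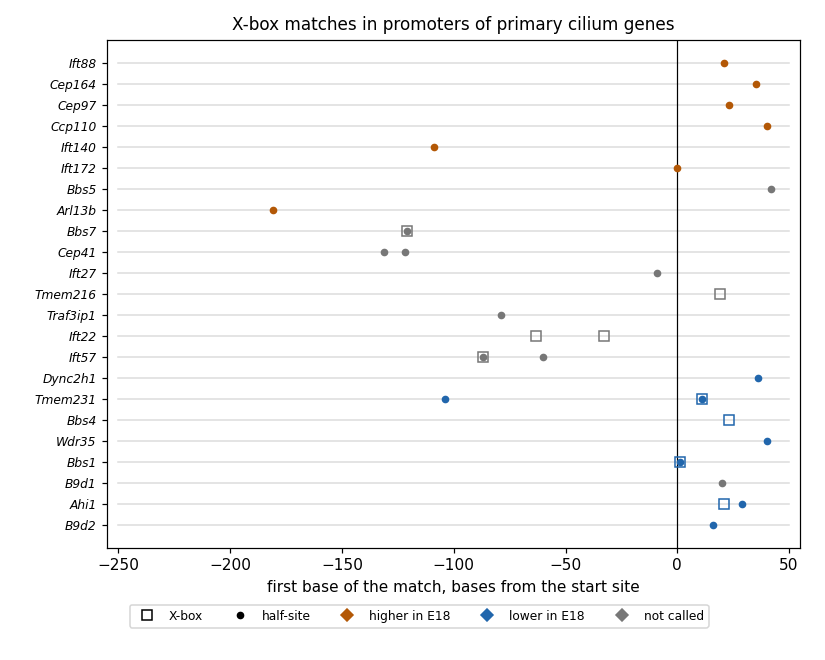
X-box matches (open squares) and half-sites (dots) in 300-base promoters of the primary cilium genes that have an entry in the table, by the distance of their first base from the start site in bases; colour gives the call of E18 over adult mCherry. Of the 8 genes with the longer motif, 0 were called higher, 4 lower (Tmem231, Bbs4, Bbs1 and Ahi1) and 4 neither.

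Among the 8 listed genes with the longer motif, 4 were called lower in E18 and 0 higher. Among the other 34 listed genes with a promoter, 13 were called higher and 5 lower. Of all 165 tested genes with the longer motif, 38.8% were called higher and 26.1% lower, close to the 40.8% and 29.5% of tested genes without it. For the half-site, 7 of 20 listed genes with it were called higher and 6 lower, beside 6 and 3 of the 22 without it. All tested genes with the half-site had 39.7% called higher and 32.2% lower, and those without it 40.9% and 28.9%. These shares are descriptions, and a match does not show that a factor binds there.

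The RGC label was checked against 13 RGC markers, all of which have an entry. Their summed level was 5399 to 5414 FPKM in E18 libraries, 2049 to 2076 FPKM in miR1247 libraries and 3310 to 3366 FPKM in mCherry libraries, and all 13 were called lower in miR1247 than in mCherry. Against mCherry, 10 of the 13 were called higher in E18 and 3 lower. Those 3 were Thy1, the antigen of the purification (means of 352 FPKM in E18 and 855 FPKM in mCherry), Slc17a6 (52.8 and 122 FPKM) and Nefh (4.80 and 84.0 FPKM). Of 9 Müller glia and astrocyte markers 5 had an entry, with sums of 167 FPKM in both E18 libraries, 1713 to 1825 FPKM in miR1247 libraries and 1063 to 1409 FPKM in mCherry libraries. Of 8 amacrine markers 4 had an entry, with sums of 227 to 243 FPKM in E18, 394 to 434 FPKM in miR1247 and 297 to 321 FPKM in mCherry libraries, and Npy was at 0 in 1 E18 library. Members of these lists went opposite ways: nearly all of the amacrine sum in E18 was Pax6, at 226 and 239 FPKM, while Gad2 averaged 0.856 FPKM in E18 and 81.8 FPKM in mCherry. Of the glial list, Vim averaged 42.7 FPKM in E18 and 1.12 FPKM in mCherry, and the other 4 were lower in E18. Of 11 rod markers 3 had an entry, summing to 5.57 to 6.41 FPKM in E18, 24.3 to 26.9 FPKM in miR1247 and 45.6 to 46.8 FPKM in mCherry libraries, with Sag at 0 in at least 1 library of E18 and miR1247. Of 9 progenitor markers 2 had an entry, summing to 49.5 to 52.9 FPKM in E18, 19.6 to 22.4 FPKM in miR1247 and 18.6 to 19.5 FPKM in mCherry libraries, and Dapl1 was at 0 in the adult libraries. Bipolar markers (3 of 8 listed, Gng13 at 0 in at least 1 library of each group), Mbp of oligodendrocytes and Col6a1 of fibroblasts had entries, while 0 markers of cones, microglia, endothelium, pigment epithelium and erythroid cells did. The part of other cells in the results below was not tested. Totals of the listed FPKM ran from 339224 to 392238 per library. The table gives no read counts, so the depth behind each value is unknown.

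The cilium genes were of moderate to low abundance in RGCs. Their median level over the 6 libraries was 7.88 FPKM, against 14.7 FPKM for all tested genes, and 11 of 49 lay above that median. None was at 0 in any library, 7 averaged over 20 FPKM and 15 under 5 FPKM. Over all 6 libraries the most abundant was Arl3, a GTPase that unloads lipid-modified proteins inside the cilium, at a mean of 50.7 FPKM. Next came Ahi1, the Joubert syndrome protein jouberin, at 43.7 FPKM, and Ift20, the IFT-B subunit that also works at the Golgi, at 33.3 FPKM. They were followed by Bbip1 at 31.8 FPKM, Bbs4 at 28.4 FPKM and B9d2 at 27.9 FPKM. Pcm1, Ift46, Ift22 and Arl6 completed the 10 highest, at 22.5, 18.5, 18.0 and 15.1 FPKM. These ranks pool groups whose order differs. Group means of Ahi1 were 22.3 FPKM in E18, 59.1 FPKM in miR1247 and 49.6 FPKM in mCherry, and those of Arl3 were 59.8, 44.8 and 47.4 FPKM in the same order. Ahi1 thus stood above Arl3 in both adult groups, and in E18 below Arl3, Bbip1, Ift20, Ift46 and Pcm1. Over all libraries, the 5 lowest were Cep41 at 1.47 FPKM, Tmem67 at 1.97 FPKM, Cep290 at 2.15 FPKM, Ttc21b at 2.19 FPKM and Bbs5 at 2.85 FPKM. Libraries of a group differed little at the median gene, by 0.22 on the log2 scale in E18, 0.13 in miR1247 and 0.16 in mCherry. The largest such difference was that of B9d1 between the E18 libraries, at 2.16.

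**Figure D2:**
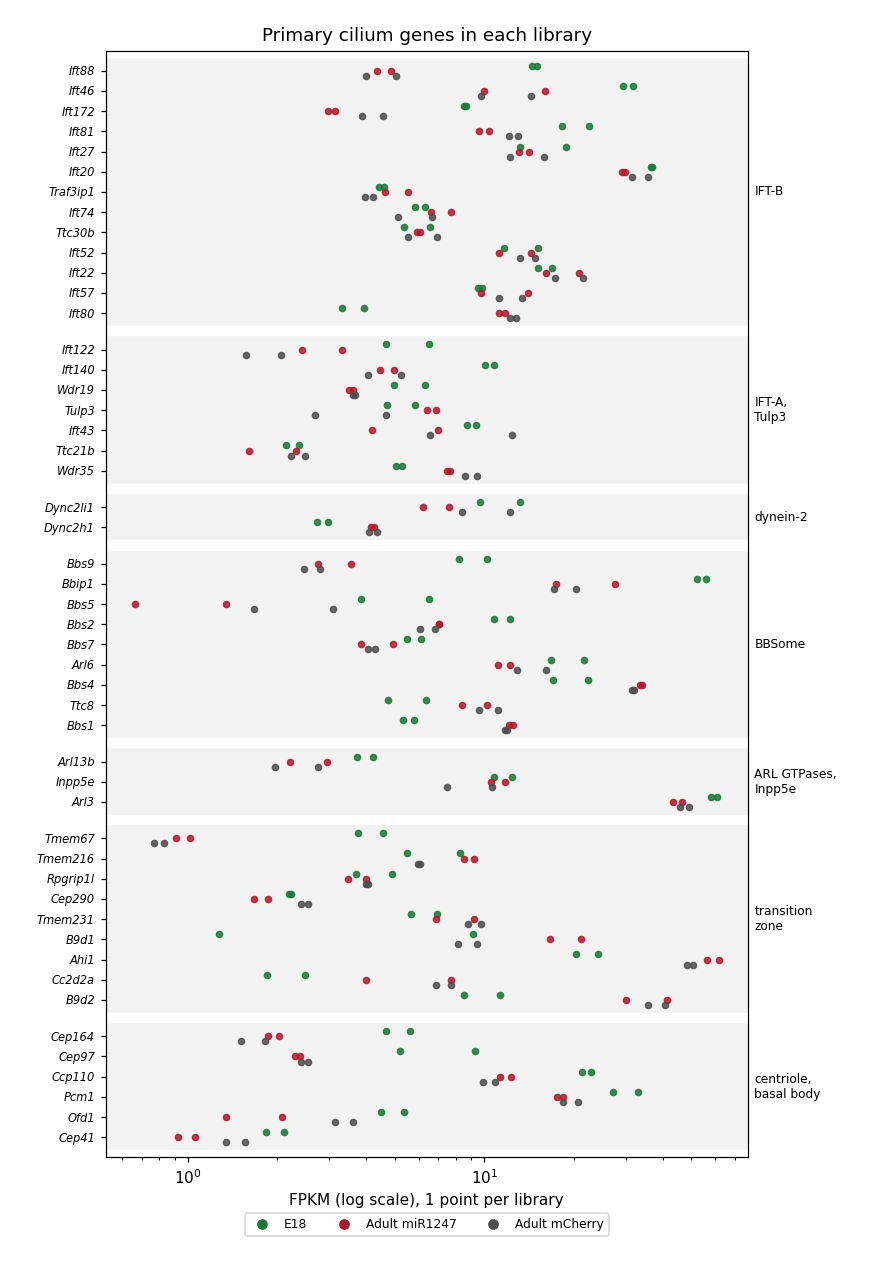
Level of the 49 primary cilium genes in each library in FPKM on a log axis, with 1 point per library and genes grouped by complex; green is E18, red adult miR1247 and grey adult mCherry. The E18 points of Ift88, Bbs9 and Tmem67 lie to the right of all adult points, those of Ift80, B9d2 and Ahi1 to the left, and miR1247 and mCherry points lie near each other for most genes.

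The first comparison asks how the ciliary genes differ between embryonic RGCs and adult control RGCs. They moved in both directions: of 49 genes 17 were called higher in E18 than in mCherry and 10 lower, 10 and 4 of them by at least 1 unit of log2 (2-fold). The background was 40.2% of all tested genes higher, 29.8% lower and 70.1% called in either direction. In either direction 27 of 49 ciliary genes were called (55.1%), which is below that background. Their median log2 fold change, 0.16, equalled that of all tested genes, 0.16, and under median ratio scaling both moved to 0.02. A gene was called at an adjusted p of at most 0.05, and each fold change is the difference of the group means of log2(FPKM + 1), a scale that understates changes of genes at low levels. The libraries of the 2 groups did not overlap for 39 of 49 genes, against 85.5% of all tested genes. In bulk RNA, fewer cells with a cilium and less RNA per cell cannot be told apart.

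**Figure D3:**
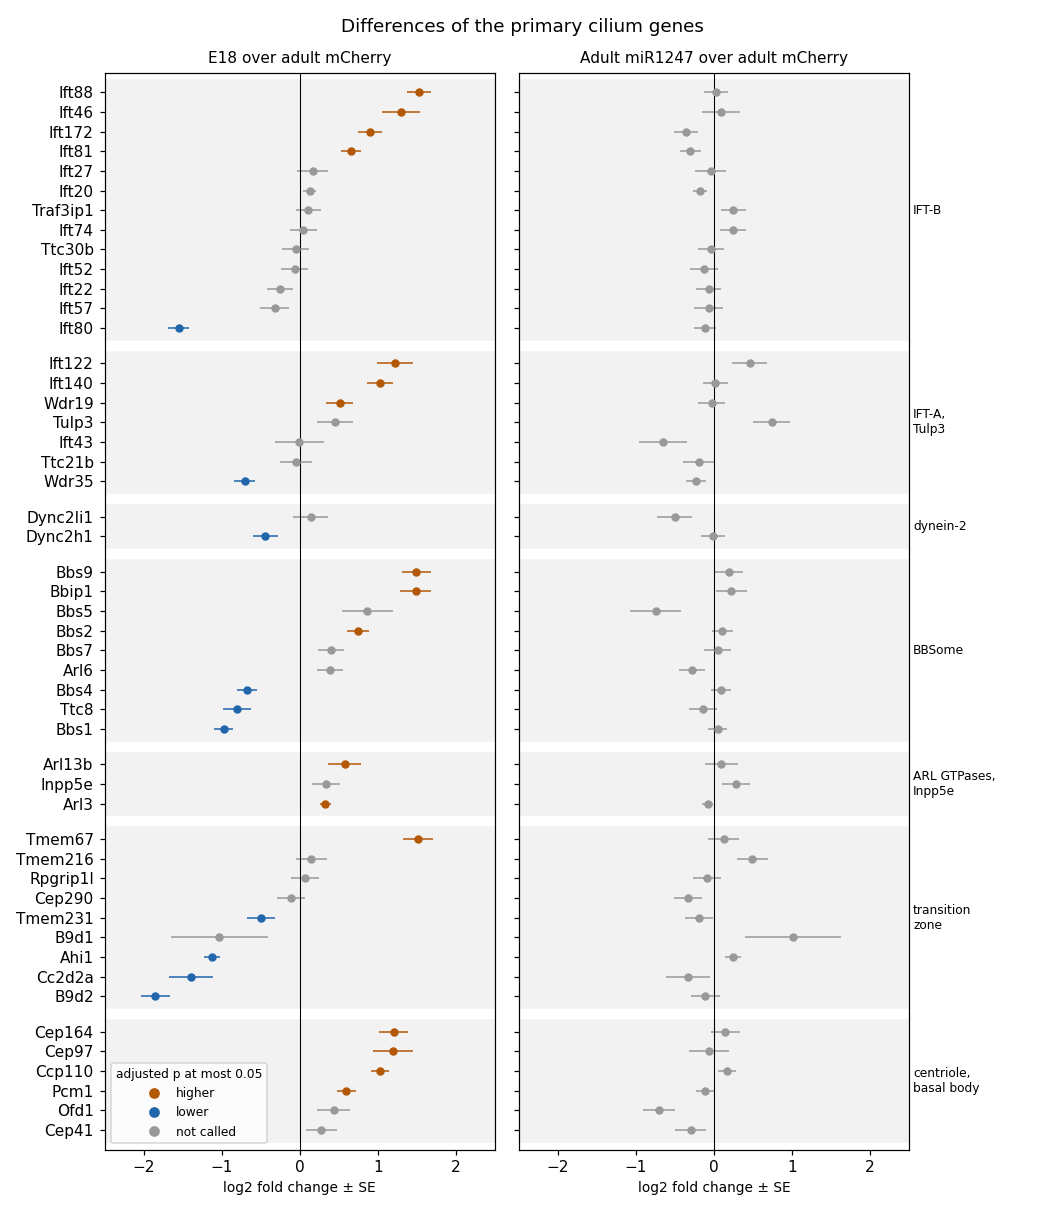
Log2 fold change with its standard error for the 49 primary cilium genes, from 2 libraries a group; the left panel gives E18 over adult mCherry and the right panel adult miR1247 over adult mCherry, with genes grouped by complex. On the left, 17 genes are called higher (orange) and 10 lower (blue), and on the right 0 are called.

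Of 13 IFT-B subunits 4 were higher in E18, 1 was lower and 8 were not called, 38.5% called against 70.1% of all tested genes. Ift88, a core subunit without which cilia are stunted or absent, had 14.4 and 15.1 FPKM in E18 libraries, 4.34 and 4.84 FPKM in miR1247 libraries and 3.99 and 5.04 FPKM in mCherry libraries. Both E18 values lay above all 4 adult values, and Ift88 (chr14:57661519-57755393 in mm39, plus strand) rose by 1.52 ± 0.15 on the log2 scale over mCherry, with an adjusted p of 0.00016. Ift46, a core subunit known from Chlamydomonas as an adaptor for outer dynein arms, was at 29.3 and 31.6 FPKM in E18, 16.0 and 9.98 FPKM in miR1247 and 9.74 and 14.4 FPKM in mCherry libraries. Its adult groups overlapped each other and both lay below E18 (log2 fold change over mCherry 1.29 ± 0.24, adjusted p = 0.00303). Ift81, which binds tubulin together with Ift74, had 18.3 and 22.5 FPKM in E18, 9.60 and 10.4 FPKM in miR1247 and 12.9 and 12.1 FPKM in mCherry libraries. It rose by 0.66 ± 0.13 on the log2 scale (adjusted p = 0.00418), while its partner Ift74, at 6.32 and 5.82 FPKM in E18 and 6.67 and 5.13 FPKM in mCherry libraries, did not pass (log2 fold change 0.044 ± 0.17, adjusted p = 0.827).

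The peripheral IFT-B subunits held the widest contrast within the complex. Ift172, the longest IFT-B protein, which takes part in the turnaround of trains at the tip, had 8.56 and 8.70 FPKM in E18, 2.97 and 3.14 FPKM in miR1247 and 3.86 and 4.53 FPKM in mCherry libraries and rose by 0.89 ± 0.15 on the log2 scale (adjusted p = 0.00194). Ift80, mutated in a human skeletal ciliopathy, had 3.30 and 3.92 FPKM in E18, 11.2 and 11.8 FPKM in miR1247 and 12.8 and 12.2 FPKM in mCherry libraries. Every adult library was above both E18 libraries, and Ift80 (chr3:68799832-68911903, minus strand) fell by 1.55 ± 0.14 on the log2 scale (adjusted p = 7.66e-05), to a mean level 3.46-fold below mCherry. The 8 subunits not called, Ift20, Ift22, Ift27, Ift52, Ift57, Ift74, Traf3ip1 and Ttc30b, had log2 fold changes between -0.32 and 0.16. Ttc30b has a near-identical copy, Ttc30a1, so its reads may be divided uncertainly between them. By subcomplex, 3 of 8 tested core subunits were higher and 0 lower, and of 5 peripheral subunits 1 was higher and 1 lower. Among all tested genes 40.2% were higher and 29.8% lower, and the split was not tested.

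In IFT-A, all 3 core subunits rose in E18, and of the 3 peripheral subunits 1 fell and 2 were not called. With the adaptor Tulp3, 57.1% of these 7 genes were called, against 70.1% of all tested genes. The split between core and periphery rests on few genes and was not tested. Ift122 was at 4.65 and 6.49 FPKM in E18, 3.31 and 2.43 FPKM in miR1247 and 2.06 and 1.56 FPKM in mCherry libraries, with no overlap between any 2 groups, and rose by 1.22 ± 0.23 on the log2 scale (adjusted p = 0.00289). Ift140, whose mutations cause retinal dystrophy in humans, had 10.8 and 10.0 FPKM in E18, 4.43 and 4.94 FPKM in miR1247 and 5.23 and 4.04 FPKM in mCherry libraries. Its log2 fold change was 1.03 ± 0.16 (adjusted p = 0.00138), and its locus also holds the gene Tmem204. Wdr19, the subunit also called IFT144, had 4.96 and 6.30 FPKM in E18, 3.48 and 3.61 FPKM in miR1247 and 3.61 and 3.65 FPKM in mCherry libraries and a log2 fold change of 0.51 ± 0.17 (adjusted p = 0.0324). The call of Wdr19 was lost without E18 replicate 2, without either mCherry library and under median ratio scaling, equal totals, quantile normalization and without mitochondrial genes.

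Wdr35, a peripheral subunit also called IFT121, went the other way. It had 5.27 and 5.03 FPKM in E18, 7.45 and 7.66 FPKM in miR1247 and 8.60 and 9.46 FPKM in mCherry libraries, in that order without overlap, and fell by 0.70 ± 0.13 on the log2 scale (adjusted p = 0.00306). Ift43 and Ttc21b, the other peripheral subunits, had log2 fold changes of -0.0053 ± 0.31 and -0.044 ± 0.20 and did not pass. Tulp3, the adaptor that ties membrane receptors to IFT-A, was at 5.83 and 4.69 FPKM in E18, 6.38 and 6.88 FPKM in miR1247 and 4.65 and 2.68 FPKM in mCherry libraries, and did not pass (log2 fold change 0.45 ± 0.24, adjusted p = 0.128).

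Dynein-2, the return motor, is represented by 2 genes. Its heavy chain Dync2h1 had 2.72 and 2.97 FPKM in E18, 4.15 and 4.23 FPKM in miR1247 and 4.35 and 4.09 FPKM in mCherry libraries, and was called lower in E18 by a small margin (log2 fold change -0.44 ± 0.16, adjusted p = 0.0418). That call was lost when any of the 6 libraries was left out, so it rests on the full set, and the locus also holds Dcun1d5. The light intermediate chain Dync2li1 had 13.2 and 9.67 FPKM in E18, 6.22 and 7.62 FPKM in miR1247 and 12.3 and 8.40 FPKM in mCherry libraries and did not pass (log2 fold change 0.14 ± 0.22, adjusted p = 0.59).

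Of the 8 subunits of the BBSome 3 rose, 3 fell and 2 were not called, or 37.5% in each direction, against 40.2% higher and 29.8% lower among all tested genes. Bbs9, a core subunit, had 8.23 and 10.2 FPKM in E18, 2.75 and 3.54 FPKM in miR1247 and 2.79 and 2.46 FPKM in mCherry libraries and rose by 1.49 ± 0.19 on the log2 scale (adjusted p = 0.000434), a mean level 3.52-fold that of mCherry. Bbip1, the smallest subunit, had 52.1 and 56.0 FPKM in E18, 17.5 and 27.7 FPKM in miR1247 and 20.4 and 17.2 FPKM in mCherry libraries. It rose by 1.48 ± 0.20 on the log2 scale (adjusted p = 0.000664), at a locus that overlaps Shoc2. Bbs2, which pairs with Bbs7, had 10.7 and 12.2 FPKM in E18, 7.04 and 7.02 FPKM in miR1247 and 6.84 and 6.08 FPKM in mCherry libraries and rose by 0.74 ± 0.14 on the log2 scale (adjusted p = 0.00273), at a locus that overlaps Ogfod1. In all 3 genes both E18 libraries were above all adult libraries.

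The subunits that fell were Bbs1, Bbs4 and Ttc8. Bbs1, the subunit that contacts the membrane GTPase Arl6, had 5.77 and 5.31 FPKM in E18, 12.4 and 12.1 FPKM in miR1247 and 11.9 and 11.7 FPKM in mCherry libraries. The 4 adult libraries lay within 1 FPKM of each other, and Bbs1 (chr19:4936906-4956656, minus strand) fell by 0.97 ± 0.12 on the log2 scale (adjusted p = 0.00039). Bbs4, which binds the satellite protein Pcm1, had 22.3 and 17.1 FPKM in E18, 33.6 and 34.0 FPKM in miR1247 and 31.4 and 32.0 FPKM in mCherry libraries and fell by 0.67 ± 0.13 on the log2 scale (adjusted p = 0.00302). The Bbs4 locus also holds Adpgk, so reads of that gene may be included. Ttc8, also called BBS8, had 6.37 and 4.73 FPKM in E18, 10.2 and 8.39 FPKM in miR1247 and 9.60 and 11.1 FPKM in mCherry libraries and fell by 0.80 ± 0.18 on the log2 scale (adjusted p = 0.00671). Bbs1 and Bbs4 both carry the longer X-box match printed above, and so does Bbs7, which did not pass (log2 fold change 0.40 ± 0.17, adjusted p = 0.0744). Bbs5 was at 3.83 and 6.48 FPKM in E18, 1.35 and 0.661 FPKM in miR1247 and 3.10 and 1.67 FPKM in mCherry libraries, just short of a call (log2 fold change 0.86 ± 0.33, adjusted p = 0.0512). Arl6, the GTPase that recruits the complex to membranes, had a log2 fold change of 0.38 ± 0.16 (adjusted p = 0.0756).

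Of the GTPases that sort lipid-modified proteins, both were called higher in E18, beside 40.2% of all tested genes. Arl3 had 58.4 and 61.1 FPKM in E18, 46.3 and 43.3 FPKM in miR1247 and 49.1 and 45.7 FPKM in mCherry libraries. Its log2 fold change was small, 0.33 ± 0.075 (adjusted p = 0.00706), and the call was lost under median ratio scaling and with equal totals. Arl13b, which activates Arl3 and is mutated in Joubert syndrome, had 4.20 and 3.72 FPKM in E18, 2.21 and 2.94 FPKM in miR1247 and 2.74 and 1.96 FPKM in mCherry libraries. Its log2 fold change was 0.57 ± 0.21 (adjusted p = 0.0443), and 5 of 6 fits without a library and 8 of 10 other alternatives ended the call. Inpp5e, the phosphatase that sets the lipid content of the ciliary membrane and reaches the cilium through these GTPases, had a log2 fold change of 0.34 ± 0.18 and did not pass (adjusted p = 0.133).

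Of 9 tested genes of the transition zone 1 rose, 4 fell and 4 were not called. The shares of 11.1% higher and 44.4% lower stand beside 40.2% and 29.8% of all tested genes, and the difference was not tested. The summed level of the 9 was 72.1 and 54.8 FPKM in E18 libraries, 146.7 and 139.3 FPKM in miR1247 libraries and 122.3 and 130.5 FPKM in mCherry libraries. Most of the gap between the E18 and mCherry sums lay in B9d2 and Ahi1, so the sums do not describe the class as a whole. Means of B9d2 were 9.94 FPKM in E18 and 38.1 FPKM in mCherry, and those of Ahi1 were 22.3 and 49.6 FPKM. B9d2, a B9-domain protein of the gate complex, had 11.3 and 8.56 FPKM in E18, 41.3 and 30.1 FPKM in miR1247 and 35.6 and 40.7 FPKM in mCherry libraries. Every adult library was above both E18 libraries. B9d2 (chr7:25380205-25385985, plus strand, a locus that also holds Tmem91) fell by 1.85 ± 0.19 on the log2 scale (adjusted p = 0.000152), the lowest fold change among the 49 genes. Ahi1 had 24.2 and 20.4 FPKM in E18, 61.9 and 56.4 FPKM in miR1247 and 48.4 and 50.8 FPKM in mCherry libraries and fell by 1.12 ± 0.10 on the log2 scale (adjusted p = 9.16e-05). Its locus (chr10:20828405-20956328, plus strand) holds no other protein-coding gene.

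Cc2d2a, a C2-domain protein of the gate, had 1.85 and 2.48 FPKM in E18, 3.98 and 7.74 FPKM in miR1247 and 6.84 and 7.72 FPKM in mCherry libraries. The miR1247 libraries differed from each other and overlapped those of mCherry, and both E18 libraries were below all 4. Cc2d2a fell by 1.39 ± 0.28 on the log2 scale against mCherry (adjusted p = 0.00418). Tmem231, a membrane protein of the same complex, had 5.66 and 6.93 FPKM in E18, 6.88 and 9.21 FPKM in miR1247 and 8.82 and 9.74 FPKM in mCherry libraries. It was called lower (log2 fold change -0.50 ± 0.18, adjusted p = 0.0425), but not without either E18 library or either mCherry library. Tmem67, the membrane receptor-like protein meckelin, was the exception. It had 4.55 and 3.75 FPKM in E18, 1.01 and 0.911 FPKM in miR1247 and 0.827 and 0.768 FPKM in mCherry libraries and rose by 1.51 ± 0.20 on the log2 scale (adjusted p = 0.000514), a mean level 5.20-fold that of mCherry. The Tmem67 locus (chr4:12027505-12148751, minus strand) also holds Cibar1, Rbm12b1 and Rbm12b2, so reads of those genes may be included.

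B9d1, the partner of B9d2, could not be read with the same certainty. Summed over 2 loci with the same coordinates, it had 9.13 and 1.27 FPKM in E18, 16.6 and 21.3 FPKM in miR1247 and 9.48 and 8.15 FPKM in mCherry libraries. The 2 E18 libraries differed by more than most groups, and the gene did not pass (log2 fold change -1.03 ± 0.62, adjusted p = 0.176). One of its loci, taken by itself, had 4.54 and 0 FPKM in E18 libraries, 8.99 and 15.5 FPKM in miR1247 libraries and 0 FPKM in both mCherry libraries. The other had 4.59 and 1.27 FPKM in E18, 7.61 and 5.79 FPKM in miR1247 and 9.48 and 8.15 FPKM in mCherry libraries. An exact 0 in these values may be a failed division between loci rather than an absent transcript. Tmem216, Rpgrip1l and Cep290, the remaining genes of the gate, had log2 fold changes of 0.15 ± 0.19, 0.065 ± 0.18 and -0.11 ± 0.18 and did not pass.

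Of 6 genes of the centriole, its satellites and the basal body 4 were higher in E18 and 0 lower, beside 40.2% and 29.8% of all tested genes. Whether this class differs from the transition zone or from other genes was not tested. Their summed level was 70.5 and 72.5 FPKM in E18 libraries, 35.7 and 38.0 FPKM in miR1247 libraries and 38.3 and 39.4 FPKM in mCherry libraries. Ccp110, which caps the mother centriole and has to leave before a cilium can grow, had 23.0 and 21.4 FPKM in E18, 11.3 and 12.3 FPKM in miR1247 and 10.9 and 9.89 FPKM in mCherry libraries and rose by 1.03 ± 0.11 on the log2 scale (adjusted p = 0.000239). Its partner in the cap, Cep97, had 9.29 and 5.17 FPKM in E18, 2.38 and 2.29 FPKM in miR1247 and 2.41 and 2.55 FPKM in mCherry libraries. Both E18 values of Cep97 were above all adult values although they differed between themselves, and it rose by 1.20 ± 0.26 on the log2 scale (adjusted p = 0.00543).

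Cep164, the distal appendage protein that docks the centriole to the membrane, had 4.67 and 5.61 FPKM in E18, 2.02 and 1.86 FPKM in miR1247 and 1.50 and 1.82 FPKM in mCherry libraries and rose by 1.20 ± 0.19 on the log2 scale (adjusted p = 0.0012). A docking factor and the cap proteins that hold back assembly were thus all higher in E18. Pcm1, the scaffold of centriolar satellites, had 27.2 and 32.9 FPKM in E18, 17.6 and 18.5 FPKM in miR1247 and 18.4 and 20.7 FPKM in mCherry libraries and rose by 0.59 ± 0.12 on the log2 scale (adjusted p = 0.00426). Ofd1, a centriole length factor, and Cep41, which serves tubulin glutamylation in the axoneme, had log2 fold changes of 0.43 ± 0.21 and 0.28 ± 0.20 and did not pass.

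Of the 27 calls, 22 held under every alternative that could be run, and the other 5 were Wdr19, Dync2h1, Arl3, Arl13b and Tmem231. Many assembled loci hold more than 1 gene. Besides the cases named with their genes, the loci of Ift81 and Arl13b also hold P2rx7 and Stx19. The loci of Ift74 and Cep290 also hold Lrrc19 and Rlig1. Those of Ift20 and Arl6 also hold Tmem97 and Epha6, and that of Inpp5e also holds Entr1 and Pmpca. Among the 32 members with a single locus that holds no other protein-coding gene, 11 were called higher and 7 lower. These are 34.4% and 21.9%, beside 40.2% and 29.8% of all tested genes. The 2 groups of E18 and mCherry libraries also differed in the markers of glia, amacrine cells, rods and progenitors given above, and the part of those cells in these differences was not tested.

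The second comparison asks what the miR-1247-5p vector changes in adult RGCs. None of the 49 ciliary genes was called in miR1247 over mCherry by limma. The background was 3.53% of all tested genes higher and 6.22% lower, 9.75% in either direction. The split of those calls depended on the scaling, with 353 higher and 621 lower as deposited, 136 and 764 with equal totals and 463 and 529 under median ratio scaling. At an unadjusted p of at most 0.05, 4 of 49 ciliary genes passed, against 28.6% of all tested genes. Libraries of the 2 groups did not overlap for 26 of 49, against 57.7% of all. The median log2 fold change was -0.04 for the ciliary genes and -0.03 for all tested genes. Estimates ran from -0.74 (Bbs5) to 1.02 (B9d1), and a miss of the threshold does not show that levels were equal.

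The 5 genes with the smallest p-values were Ofd1, Tulp3, Tmem216, Ahi1 and Ift172. Ofd1 had 1.34 and 2.08 FPKM in miR1247 libraries and 3.61 and 3.14 FPKM in mCherry libraries, without overlap (log2 fold change -0.70 ± 0.21, adjusted p = 0.0844). The Ofd1 locus on chromosome X also holds Rab9 and Trappc2. Tulp3 had 6.38 and 6.88 FPKM in miR1247 and 4.65 and 2.68 FPKM in mCherry libraries (log2 fold change 0.74 ± 0.24, adjusted p = 0.097). Tmem216, a small membrane protein of the gate, had 9.21 and 8.51 FPKM in miR1247 and 5.96 and 6.04 FPKM in mCherry libraries (log2 fold change 0.49 ± 0.19, adjusted p = 0.156). For both genes the miR1247 libraries were the higher ones without overlap, although neither passed. Ahi1 had 61.9 and 56.4 FPKM in miR1247 and 48.4 and 50.8 FPKM in mCherry libraries (log2 fold change 0.25 ± 0.10, adjusted p = 0.169). Ift172 had 2.97 and 3.14 FPKM in miR1247 and 3.86 and 4.53 FPKM in mCherry libraries (log2 fold change -0.36 ± 0.15, adjusted p = 0.186). Both showed a separation of the groups that was small beside that from E18.

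B9d1 had the highest estimate. Its sum was 16.6 and 21.3 FPKM in miR1247 and 9.48 and 8.15 FPKM in mCherry libraries, without overlap (log2 fold change 1.02 ± 0.62, adjusted p = 0.33). In a fit of these 4 libraries alone, which leaves out the unlike E18 libraries from the estimate of spread, B9d1 was the ciliary gene called higher (standard error 0.16, adjusted p = 0.0288). The difference stood in the locus that was listed at 0 in both mCherry libraries. The locus measured in all groups had 7.61 and 5.79 FPKM in miR1247 libraries and 9.48 and 8.15 FPKM in mCherry libraries.

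A microRNA binds messenger RNAs mostly through bases 2 to 8 of its mature form, the seed, which stands in capitals in the RefSeq sequence of miR-1247-5p (chr12:110278094-110278115 in GRCm38.p6, minus strand).

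mmu-miR-1247-5p: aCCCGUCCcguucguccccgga

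The complement of the seed, GGACGGG, was looked for in the 3′ UTRs of canonical transcripts of GENCODE release M39. It was present in 0 of 47 ciliary genes with an entry and a 3′ UTR, against 3.27% of 9797 tested genes. The median 3′ UTR was shorter in these 47 genes, 905 bases against 1490 bases in tested genes, and the shares were not corrected for length. The shorter match GACGGG was present in 3 of 47 (6.38%), Bbs1, Ift27 and Ift81, against 9.02% of tested genes. Of these, Ift81 had 9.60 and 10.4 FPKM in miR1247 libraries and 12.9 and 12.1 FPKM in mCherry libraries (log2 fold change -0.30 ± 0.13, adjusted p = 0.195). Bbs1 and Ift27 had log2 fold changes of 0.049 ± 0.12 and -0.040 ± 0.20. A match is a description and not a site of action. The level of the introduced microRNA itself was not analysed here.

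The third comparison sets E18 against adult miR1247 RGCs and shares libraries with both others, so its calls are not independent of theirs. Of 49 ciliary genes 22 were called higher in E18 and 10 lower, against 41.5% higher, 28.4% lower and 69.9% in either direction for all tested genes. Libraries of the 2 groups did not overlap for 40 of 49 genes, against 86.3% of all. The median was 0.31 for ciliary genes and 0.19 for all tested genes, and 0.12 and 0.01 under median ratio scaling. The split was 17 higher and 12 lower after quantile normalization. All 6 genes of the centriole class were called higher in this comparison, and 21 of the 32 calls held under every alternative.

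The gap between the 2 E18 fold changes of a gene is its fold change of miR1247 over mCherry, and it was widest for B9d1, Bbs5, Tulp3 and Ofd1. Ofd1 had 4.47 and 5.36 FPKM in E18 libraries and 1.34 and 2.08 FPKM in miR1247 libraries, a log2 fold change of 1.14 ± 0.21 (adjusted p = 0.00267), while that over mCherry was 0.43 ± 0.21 (adjusted p = 0.104). Bbs5 had 3.83 and 6.48 FPKM in E18 and 1.35 and 0.661 FPKM in miR1247 libraries, a log2 fold change of 1.61 ± 0.33 (adjusted p = 0.0043). Dync2li1 was called higher over miR1247 (log2 fold change 0.64 ± 0.22, adjusted p = 0.038), and so were Ift20 (log2 fold change 0.31 ± 0.087), Arl6 (log2 fold change 0.67 ± 0.16) and Cep41 (log2 fold change 0.58 ± 0.20). B9d1 was called lower (log2 fold change -2.04 ± 0.62, adjusted p = 0.0223). The calls of Ofd1 and Bbs5 held under every alternative run, and those of the other 5 were lost under some of them. Those of Dync2li1, Ift20, Cep41 and B9d1 were lost without either miR1247 library, and that of Arl6 without miR1247 replicate 2 or E18 replicate 2. The call of Ift20 was also lost without either E18 library, that of Dync2li1 without E18 replicate 1 and that of Cep41 without E18 replicate 2. Median ratio scaling, quantile normalization and leaving out mitochondrial genes each ended those of Dync2li1, Ift20 and Cep41. Taking each locus by itself ended those of B9d1 and Cep41. The replicate block also ended that of Cep41, and a fit with no variance trend that of Dync2li1. Whether the 2 adult groups differ in these genes is the second comparison, in which none passed.

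The genes around the ciliary list were counted in separate lists for E18 over mCherry. The lists held 132 tested genes, of which 41.7% were higher and 26.5% lower, near the background of 40.2% and 29.8%, and no list was tested against the others or against all genes. Of 12 other IFT, dynein-2 and kinesin-2 genes 6 were higher and 5 lower, 91.7% called against the background of 70.1%. The kinesin-2 motor subunit Kif3b had 25.6 and 23.1 FPKM in E18, 12.1 and 11.9 FPKM in miR1247 and 12.2 and 14.8 FPKM in mCherry libraries and rose by 0.81 ± 0.13 on the log2 scale. Kif3c, a neuronal kinesin-2 subunit that also works in axons, had 99.9 and 97.9 FPKM in E18, 45.6 and 43.9 FPKM in miR1247 and 55.9 and 53.5 FPKM in mCherry libraries and rose by 0.84 ± 0.062 on the log2 scale. Rabl2, which starts IFT-B trains at the base, rose by 1.22 ± 0.26 on the log2 scale. Dynll1 rose by 0.92 ± 0.10 on the log2 scale, and Dynll2, Dynlrb1 and Dynlt3 fell by 1.31 ± 0.038, 0.50 ± 0.059 and 1.71 ± 0.11 on the log2 scale. These 4 light chains also serve dyneins outside the cilium. Ttc30a1, the copy of Ttc30b, fell by 1.05 ± 0.22 on the log2 scale.

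Among 24 other BBSome and trafficking genes 10 were higher and 6 lower in E18, or 41.7% and 25%, close to the background. The recycling ATPase Ehd1 had 50.5 and 48.3 FPKM in E18, 12.6 and 14.0 FPKM in miR1247 and 15.7 and 16.2 FPKM in mCherry libraries and rose by 1.57 ± 0.095 on the log2 scale. Its relative Ehd3 had 20.6 and 20.4 FPKM in E18, 54.8 and 51.8 FPKM in miR1247 and 57.1 and 56.8 FPKM in mCherry libraries and fell by 1.43 ± 0.071 on the log2 scale. Ehd1 was the higher of the pair in both E18 libraries and Ehd3 in all 4 adult libraries. Arf4, a GTPase for vesicles bound for the cilium, rose by 1.56 ± 0.10 on the log2 scale, and the exocyst subunit Exoc5 rose by 1.41 ± 0.22 on the log2 scale. Rab11a was called higher on 2 unlike libraries, 133 and 750.4 FPKM in E18 against 58.9 and 69.1 FPKM in mCherry, and the call was lost without either mCherry library. Arl2, Asap1 and Trappc9 fell by 1.14 ± 0.076, 0.87 ± 0.085 and 0.84 ± 0.057 on the log2 scale, the last at a locus shared with Peg13.

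Of 16 transition zone genes outside the list 8 were higher in E18 and 2 lower, or 50% and 12.5%, and the 62.5% called in either direction lie below the background of 70.1%. Rpgr, mutated in X-linked retinitis pigmentosa, had 14.4 and 13.9 FPKM in E18, 2.87 and 2.32 FPKM in miR1247 and 2.32 and 3.49 FPKM in mCherry libraries and rose by 1.97 ± 0.20 on the log2 scale. Cplane1 and Iqcb1 rose by 1.47 ± 0.17 and 1.18 ± 0.21 on the log2 scale. Spata7, which holds Rpgr-interacting proteins at the connecting cilium of photoreceptors, had 11.9 and 11.6 FPKM in E18 libraries and was listed at 0 in all 4 adult libraries. Tmem218 and Togaram1 fell by 1.07 ± 0.28 and 0.80 ± 0.14 on the log2 scale, and the call of Tmem218 was lost without mCherry replicate 2.

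Of 25 other basal body and satellite genes 13 were higher in E18 and 4 lower, 68% called, near the background of 70.1%. Cep170, a subdistal appendage protein, had 95.8 and 92.7 FPKM in E18, 26.5 and 26.9 FPKM in miR1247 and 32.8 and 27.3 FPKM in mCherry libraries and rose by 1.62 ± 0.10 on the log2 scale. Dzip1, which builds the transition zone at the basal body, had 40.8 and 39.8 FPKM in E18, 15.4 and 14.7 FPKM in miR1247 and 11.7 and 10.4 FPKM in mCherry libraries and rose by 1.78 ± 0.10 on the log2 scale. Odf2, the appendage scaffold, and Cep78 rose by 1.72 ± 0.21 and 1.89 ± 0.20 on the log2 scale. Ttbk2, the kinase recruited by Cep164 to start cilium assembly, had 13.1 and 13.2 FPKM in E18, 15.6 and 15.2 FPKM in miR1247 and 19.5 and 18.9 FPKM in mCherry libraries and fell by 0.51 ± 0.10 on the log2 scale. Its recruiter Cep164 and the cap protein Ccp110 were higher in the same E18 libraries. Ssx2ip and Cep19 fell by 1.66 ± 0.18 and 1.23 ± 0.14 on the log2 scale.

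Of 14 Hedgehog signalling genes 8 were lower in E18 and 3 higher, or 57.1% and 21.4%, beside 29.8% lower and 40.2% higher among all tested genes. Gpr161, the ciliary receptor that keeps the pathway off through protein kinase A, had 26.2 and 24.1 FPKM in E18, 3.86 and 3.20 FPKM in miR1247 and 2.37 and 3.14 FPKM in mCherry libraries and rose by 2.81 ± 0.17 on the log2 scale (adjusted p = 1.37e-05). Shh, the ligand that RGCs secrete, had 8.89 and 10.6 FPKM in E18, 20.9 and 20.1 FPKM in miR1247 and 22.1 and 15.7 FPKM in mCherry libraries and fell by 0.87 ± 0.17 on the log2 scale (adjusted p = 0.00379). Disp2, a relative of the protein that releases the ligand, fell by 0.83 ± 0.057 on the log2 scale. Prkacb, a catalytic subunit of protein kinase A, fell by 1.18 ± 0.059 on the log2 scale, and Spop, which targets Gli factors for breakdown, fell by 0.82 ± 0.060 on the log2 scale. The kinases Csnk1a1 and Gsk3b, which phosphorylate Gli factors, rose by 0.71 ± 0.071 and 0.42 ± 0.072 on the log2 scale. Many of these genes also act outside the cilium.

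Of 8 genes for ciliary receptors and their signalling, 3 were higher in E18 and 2 lower, 62.5% called, below the background of 70.1%. Of the adenylyl cyclases, Adcy6 had 17.2 and 15.4 FPKM in E18, 3.50 and 4.64 FPKM in miR1247 and 3.36 and 4.13 FPKM in mCherry libraries and rose by 1.87 ± 0.18 on the log2 scale. Adcy3, the cyclase that marks neuronal cilia, had 2.74 and 4.19 FPKM in E18, 10.3 and 8.34 FPKM in miR1247 and 7.40 and 8.03 FPKM in mCherry libraries and fell by 0.98 ± 0.20 on the log2 scale. Adcy5 fell by 0.30 ± 0.10 on the log2 scale, and Arrb2 and Pkd1 rose by 0.72 ± 0.15 and 0.49 ± 0.15 on the log2 scale. The call of Adcy5 was lost without any 1 of the E18 and mCherry libraries. That of Pkd1 was lost without E18 replicate 2, without either mCherry library and under median ratio scaling, equal totals, quantile normalization and without mitochondrial genes.

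**Figure D4:**
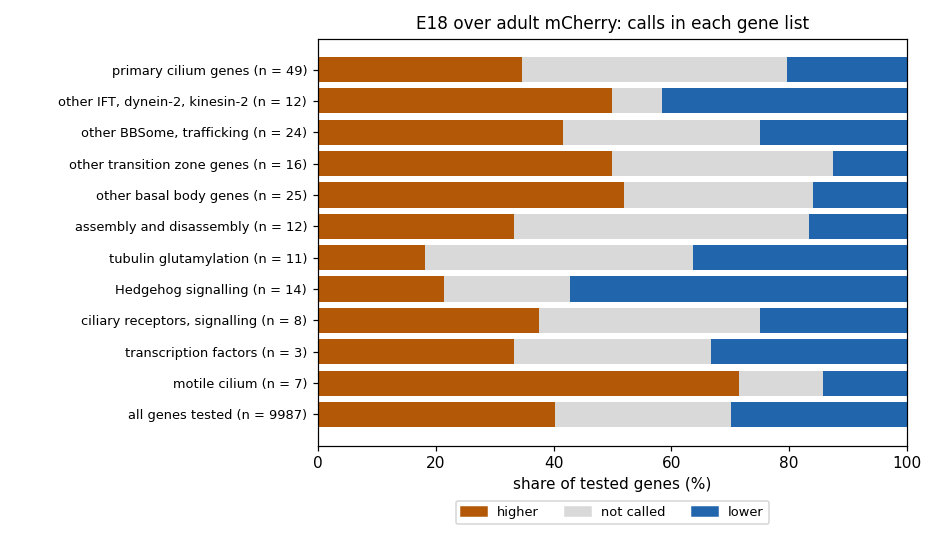
Share of tested genes called higher (orange), not called (grey) and lower (blue) in E18 over adult mCherry, in percent, for the 49 primary cilium genes, for the lists of related genes and for all 9987 genes tested; n is the number tested in each list. Of the primary cilium genes 55.1% were called, against 70.1% of all genes, and 57.1% of 14 Hedgehog signalling genes were lower, against 29.8% of all genes.

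In miR1247 over mCherry, the same lists held 13 called genes of 132 tested (9.85%), close to the 9.75% of all tested genes. The named genes are therefore described singly, and nothing is read from their number. Unc119, the carrier that Arl3 unloads, had 86.7 and 80.4 FPKM in miR1247 and 56.6 and 47.3 FPKM in mCherry libraries and rose by 0.68 ± 0.11 on the log2 scale (adjusted p = 0.0207). Arl2bp, which binds Arl2 and Arl3, had 89.0 and 89.4 FPKM in miR1247 and 68.5 and 57.5 FPKM in mCherry libraries and rose by 0.50 ± 0.092 on the log2 scale (adjusted p = 0.0263). For both genes the groups did not overlap, and 5 of 6 fits without a library lost the call. Prkar1a, a regulatory subunit of protein kinase A, had 270.3 and 275 FPKM in miR1247 and 349 and 346 FPKM in mCherry libraries, a log2 fold change of -0.35 ± 0.039 (adjusted p = 0.00707) that was lost without miR1247 replicate 1. The kinesin-2 subunits Kif3c and Kifap3 were called lower (log2 fold changes -0.28 ± 0.062 and -0.26 ± 0.051), as was Gsk3b (log2 fold change -0.31 ± 0.072), and Dzip1 was called higher (log2 fold change 0.42 ± 0.10). Each of these 4 calls was lost when any of the 6 libraries was left out. RGC markers and the rod sum were lower and glial and amacrine sums higher in the miR1247 libraries, as given above. Most of the glial difference was Glul, at 795 and 632 FPKM in miR1247 and 463 and 122 FPKM in mCherry libraries, which was not called. Only Dkk3 of the glial list and Pax6 of the amacrine list were called higher. The part of those cells in these differences was not tested.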

How the data were processed

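Poly-A RNA of 6 libraries in 3 groups of 2 was measured with a TruSeq kit, which does not keep the strand as named, and paired reads of 100 bases. Per the submitters' processing notes, the authors used HISAT2, build mm39, Cufflinks and Cuffdiff (versions not given in the sources used here), and the deposited values are FPKM. The deposited table has 11104 entries of 10889 assembled loci, and 1e-05 had been added to each value, which was taken off. The deposited log2 ratios of group means served for a check only: all 11104 entries were within 0.003 of the recomputed ratios. A locus with several genes gives each the same value, and strand partners may share reads. Each name's loci were summed, and names with identical loci were taken once.

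Names with a mean of at least 1 FPKM were tested on log2(FPKM + 1) with limma 3.58.1 under R 4.3.3, as 3 group means over all 6 libraries with a variance trend, two-sided, Benjamini-Hochberg adjusted over all 9987 and called at 0.05. The fit was tested on simulated data. Tables were handled in Python 3.11.15 with pandas 2.3.3, NumPy 2.4.6 and Matplotlib 3.10.9. Values are given for every member called in either comparison with mCherry, for the 5 members with the smallest p where none was called, for the 10 highest and 5 lowest levels, and for up to 4 called genes per related list and direction, of which some are not reported here. Members, lists and tests were chosen with earlier results of these data known. The alternatives were pseudocount 0.1, no filter, a mean of at least 5 FPKM, median ratio scaling, equal totals, quantile normalization, no mitochondrial genes, each locus by itself, no variance trend, the replicate block, only the 4 libraries compared, and each library left out. Coordinates of loci are 1-based.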

Additional observations from a re-analysis of the deposited data

How the results depend on the processing

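No called ciliary gene and no call named from the lists of related genes changed direction in any alternative run. The calls of cell type markers were not checked in this way. Among ciliary genes not called, the fold change took the other sign in at least 1 alternative for 12 of 49 in E18 over mCherry, 17 in miR1247 over mCherry and 7 in E18 over miR1247. Apart from B9d1 these fold changes were at most 0.16, 0.33 and 0.22 in size on the log2 scale. The fit of each locus by itself did not enter these counts. The B9d1 locus measured in all groups had 7.61 and 5.79 FPKM in miR1247 and 9.48 and 8.15 FPKM in mCherry libraries, opposite to the B9d1 sum. Of the 27 calls of ciliary genes in E18 over mCherry, 23 held without each library and 22 under all alternatives. Leaving out each library in turn gave 15 to 19 ciliary genes higher and 8 to 9 lower. With a mean of at least 5 FPKM, 34 ciliary genes were tested and 11 were higher over mCherry and 14 over miR1247. In E18 over miR1247, 6 to 9 were lower when a library was left out, the fewest without miR1247 replicate 1. The count of all genes called in miR1247 over mCherry, 974, was 343 with no variance trend and 584 with the replicate block, and 123 to 275 when a library was left out. In that comparison 1 ciliary gene, B9d1, was higher with only the 4 libraries compared, and 0 in the other alternatives run. The cause of these shifts was not tested, apart from the fewer genes or libraries that enter.

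Same-numbered libraries did not deviate together (r = 0.004, -0.002 and -0.008), so the labels' numbers were not taken to pair them. With the replicate block, 16 ciliary genes were higher and 9 lower in E18 over mCherry, 21 and 9 in E18 over miR1247, and 0 were called in miR1247 over mCherry. The values are FPKM without read counts, so the depth that limits weakly expressed genes is unknown.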

Other observations

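Of 11 genes for the glutamylation of axonemal tubulin 2 were higher in E18 than in mCherry and 4 lower, or 18.2% and 36.4%, beside 40.2% and 29.8% of all tested genes. Agbl5, a carboxypeptidase that removes glutamates, had 19.8 and 16.0 FPKM in E18 libraries, 5.23 and 6.04 FPKM in miR1247 libraries and 4.77 and 5.22 FPKM in mCherry libraries and rose by 1.65 ± 0.16 on the log2 scale. Ttll1, a catalytic ligase, rose by 1.08 ± 0.16 on the log2 scale, while Tpgs1, a subunit of the same ligase complex, had 25.0 and 16.8 FPKM in E18, 49.1 and 50.0 FPKM in miR1247 and 65.8 and 60.4 FPKM in mCherry libraries and fell by 1.57 ± 0.17 on the log2 scale. Ttll7, a ligase of neurons, had 19.4 and 19.8 FPKM in E18, 36.1 and 37.7 FPKM in miR1247 and 58.8 and 63.1 FPKM in mCherry libraries, with all 3 groups apart, and fell by 1.59 ± 0.077 on the log2 scale. In miR1247 over mCherry its log2 fold change was -0.71 ± 0.077 (adjusted p = 0.00706), a call lost without miR1247 replicate 1. Ccsap and Ttll11 fell by 1.24 ± 0.12 and 0.77 ± 0.21 on the log2 scale, and the call of Ttll11 was lost without E18 replicate 1 or mCherry replicate 2.

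Of 12 genes that set cilium length, assembly and disassembly 4 were higher in E18 and 2 lower, 50% called, below the background of 70.1%. Cdkl1, a kinase known to limit cilium length in zebrafish and worms, had 0.755 and 1.01 FPKM in E18, 10.9 and 8.32 FPKM in miR1247 and 7.05 and 7.40 FPKM in mCherry libraries and fell by 2.13 ± 0.18 on the log2 scale. Hdac6, a deacetylase of the axoneme that takes part in disassembly, had 28.1 and 31.3 FPKM in E18, 14.8 and 15.2 FPKM in miR1247 and 14.7 and 13.9 FPKM in mCherry libraries and was called higher in E18 (adjusted p = 0.000151). Kif2a, a kinesin that shortens microtubules, and the kinase Nek1 rose by 0.78 ± 0.11 and 1.07 ± 0.16 on the log2 scale. Dynlt1f had 6.98 and 8.90 FPKM in E18, 2.19 and 0.739 FPKM in miR1247 and 0 and 0.869 FPKM in mCherry libraries, and no fold change is given for it. In miR1247 over mCherry, Kif2a was lower (log2 fold change -0.59 ± 0.11) and Cfap20 higher (log2 fold change 0.50 ± 0.11), and both calls were lost when any of the 6 libraries was left out.

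In the list of transcription factors, which includes RFX family members, 3 genes had an entry. Rfx7 rose by 0.86 ± 0.15 on the log2 scale and Rfx5 fell by 0.72 ± 0.13 on the log2 scale. Whether either acts on ciliary genes was not tested. Of 7 motile cilium genes 5 were higher and 1 lower, 71.4% and 14.3%, beside 40.2% and 29.8% of all tested genes, with no test of the difference. Ccdc39, Ccdc40 and Spag6l rose by 2.16 ± 0.25, 1.59 ± 0.36 and 1.56 ± 0.27 on the log2 scale, the call of Ccdc40 was lost without E18 replicate 1, and Dnal1 fell by 1.35 ± 0.10 on the log2 scale. Rsph9 had 8.63 and 9.60 FPKM in E18 libraries and 1.66 and 2.77 FPKM in miR1247 libraries and was listed at 0 in both mCherry libraries.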
